A study of Drosophila melanogaster with 18 samples.

Results

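Wings of control pupae at 44 h after puparium formation were compared with wings of control pupae at 24 h. The comparison holds 6 of the 18 libraries of the series, 3 at each time, namely all those labelled rn-Gal4 with no RNAi transgene. RNA with a poly(A) tail was sequenced from pools of no fewer than 40 dissected wings, so each library is an average over many animals and all wing cells. The driver rn-Gal4 expresses the yeast activator Gal4 in the pattern of rotund (rn), a wing gene, and it was present in every group, controls included; wings without a driver were not analysed here. The remaining libraries served only to ask whether the change with time differed between genotypes. They carried the label E93RNAi (driver with UAS-E93RNAi) or E93RNAi+brRNAi (driver with UAS-brRNAi and UAS-E93RNAi), with 3 libraries at 44 h and 3 at 24 h for each label. Nothing in the labels states that replicate libraries were raised or dissected separately. The p-values therefore reflect only how far these particular libraries vary, and that variation may be technical.

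After the larva forms its puparium, the wing disc unfolds into a flat sac of epithelium whose dorsal and ventral sheets face each other. Its cells finish dividing, raise an actin-filled hair from their apical side, cover themselves with a transient apical matrix rich in zona pellucida domain proteins, and then lay down the layered adult cuticle, while their basal sides attach across the wing through integrins. These steps run under pulses of the steroid 20-hydroxyecdysone, which acts through the receptor EcR with its partner Usp and through a cascade of transcription factors encoded by early and late response genes. The comparison of the 2 times therefore follows normal development of the wing between these stages.

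The control libraries held 19361731 to 21874138 counts at 44 h and 17948709 to 20023771 counts at 24 h. Levels below are CPM (library-scaled counts with TMM factors) unless cRPKM, the authors' value per length, is named, and means are given ± SD with n = 3. A gene is said to have risen or fallen at 44 h where edgeR's quasi-likelihood test gave an adjusted p below 0.05 over the 9672 genes tested, and ± beside a log2 fold change is its SE. The median absolute log2 difference between libraries was 0.075 to 0.104 within a time and 0.52 to 0.54 across the times. All 11 markers of wing epithelium had counts in every group, among them vg, nub, sd and the cadherin gene shg. Their summed level was 3219 to 3397 CPM at 44 h and 3894 to 4158 CPM at 24 h.

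Between these times, 3591 genes rose (37.1%) and 3689 fell (38.1%), together 75.3% of the genes tested. The libraries of the 2 times did not overlap for 78.9% of the genes. Lack of overlap in a gene named below is therefore description only, most of all where genes were named for large changes. A change of at least 2-fold was found for 31.0% of the genes, 1688 higher (17.5%) and 1306 lower (13.5%), and one of at least 64-fold for 116 higher and 57 lower genes. In pooled wings, fewer cells with a transcript and less transcript per cell cannot be told apart. The median log2 change over all genes was -0.01 with TMM scaling, against -0.17 on log2(cRPKM + 1) without it. The share of calls that were higher was 49.3% with TMM and 37.3% on that scale, so small changes of either sign are read relative to this shift.

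**Figure D1:**
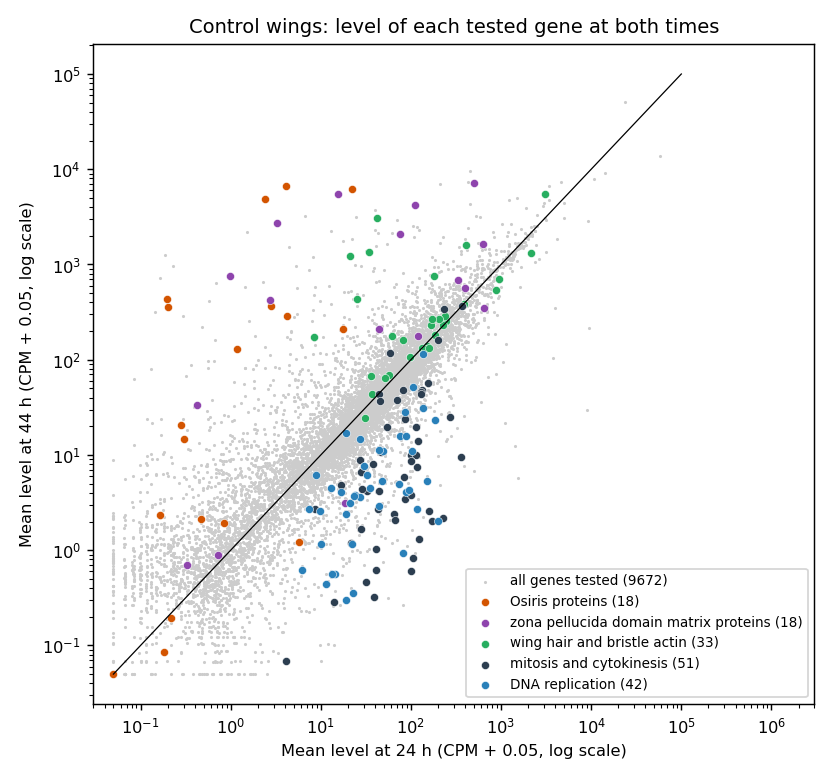
Mean level of each tested gene in control wings at 44 h (vertical) and 24 h (horizontal), in CPM plus 0.05 on log axes, with the diagonal marking equal levels. Grey points are all 9672 genes; coloured points are 5 gene lists, of which the Osiris and zona pellucida domain genes lie mostly above the diagonal and the DNA replication and mitosis genes below it.

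The 12 largest rises included 4 Osiris genes (Osi8, Osi11, Osi3 and Osi22), yellow-d2 and the nuclear receptor gene Hr3, described below with their groups, and several genes known only by a CG number. CG15888 had 1121, 1415 and 1200 CPM at 44 h, against 0.31, 0.0504 and 0.0469 CPM at 24 h. It lies 4099 bases from Osi22 on chromosome 3R, another gene of the 12 largest rises. C901 averaged 722 ± 15.4 CPM at 44 h, against 0.114 ± 0.0692 CPM at 24 h, a log2 fold change of 12.53 ± 0.26. Both genes were hence near the limit of detection in each 24 h library and among abundant transcripts in each 44 h library. The X-linked neighbours fiz and CG14406, which are 164 bases apart on the same strand, rose together, with means of 640 and 290 CPM at 44 h against 0.645 and 0.246 CPM at 24 h. CG34115 averaged 79.5 ± 2.19 CPM at 44 h, against 0.0798 ± 0.0969 CPM at 24 h. CG13231 was at 8.7 ± 0.495 CPM at 44 h and had no count at 24 h, so it was at least 175-fold higher than the 24 h floor of 0.0496 CPM, which is 3 counts summed over that group.

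The 12 largest falls included the cell division genes asp, sub, tum, msd1 and Cks30A, the Notch response genes Brd and E(spl)m8-HLH, and CG genes whose levels at 24 h differed widely. CG1850 had 30.3, 26.2 and 33.3 CPM at 44 h, against 8231, 9414 and 9200 CPM at 24 h. CG9747 had 5.38, 5.53 and 6.09 CPM at 44 h, against 1545, 1629 and 1481 CPM at 24 h. In both cases every 44 h library lay more than 100-fold below every 24 h library. CG15212 and CG15213 sit 668 bases apart on chromosome 3L on opposite strands. They fell to 0.214 ± 0.0575 and 12.3 ± 1.86 CPM at 44 h, against 81.2 ± 8.83 and 1440 ± 36.1 CPM at 24 h. Ktch fell to 0.874 ± 0.125 CPM at 44 h, against 110 ± 3.05 CPM at 24 h.

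Per length, CG13023 and bnb were the most abundant transcripts at both times among genes with a symbol, in opposite order. CG13023 had 27027 ± 449 cRPKM at 44 h and 14550 ± 127 cRPKM at 24 h. For bnb the values were 6234 ± 173 cRPKM at 44 h and 30655 ± 514 cRPKM at 24 h, a log2 fold change of -2.09 ± 0.06 in the count fit. At 44 h, Osi22 (5567 ± 344 cRPKM), CG13082 (5076 ± 131 cRPKM) and alphaTub84B, an alpha-tubulin (4776 ± 171 cRPKM), were among the top 8. At 24 h, Cpr72Ea, a chitin-binding cuticle protein (9826 ± 101 cRPKM), the small heat shock gene Hsp23 (5261 ± 188 cRPKM) and CG15213 (4858 ± 139 cRPKM) were among the top 8. RpL41, mt:CoIII and ImpE2 were in both groups of 8.

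Genes of DNA replication fell almost throughout. Of the 42 tested, 41 fell and 1 did not pass, while 0 rose. The median log2 change was -2.95, against -0.01 over all genes. PCNA, the sliding clamp of the replication fork, had 1.87, 1.99 and 2.05 CPM at 44 h, against 207, 191 and 197 CPM at 24 h. The highest 44 h library was thus far below the lowest 24 h library, with a log2 fold change of -6.65 ± 0.14 (adjusted p = 3.48e-20). Mcm5, a subunit of the replicative helicase, fell to 0.883 ± 0.238 CPM at 44 h, against 80.8 ± 1.46 CPM at 24 h. Orc2, of the origin recognition complex, fell to 0.252 ± 0.163 CPM at 44 h, against 19.1 ± 0.929 CPM at 24 h. Ts, which encodes thymidylate synthase, changed by -6.20 ± 0.21 on the log2 scale. dUTPase fell to 22 to 25 CPM at 44 h, against 180 to 190 CPM at 24 h, a change near the list median. The list was not uniform in size, since chif, a kinase partner of replication onset that also acts in chromatin, changed by -0.25 ± 0.07. Together the list took 0.0403% of the counts at 44 h and 0.249% at 24 h.

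Mitosis and cytokinesis genes fell by a similar margin, 47 of 51, while 2 rose and 2 did not pass (median -3.43). The largest falls of the list were in the spindle pole gene asp, the kinesin gene sub, and tum, which encodes a RhoGAP of the central spindle. For asp, the libraries had 0.494, 0.548 and 0.609 CPM at 44 h, against 97.2, 102 and 97.9 CPM at 24 h. For tum, they had 0.769, 0.598 and 0.942 CPM at 44 h, against 103, 104 and 109 CPM at 24 h. Both genes were among the largest falls over all genes. Those were named only where the times did not overlap, so the lack of overlap adds nothing here. The gene sti, for citron kinase of the cytokinetic ring, changed by -6.71 ± 0.12 on the log2 scale. Of msd1, which acts in the spindle and was outside this list, there were 3 counts over the 44 h libraries and 834 over those at 24 h, a ratio of 24 h over 44 h of 259 with a 95% exact interval from 88.2 to 1257. The 2 genes that rose both belong to centrosome and microtubule structure. They were cnn, at 117 CPM on average with libraries at 115 to 120 CPM at 44 h against 58.3 to 59.6 CPM at 24 h, and tacc, with a log2 change of 0.57 ± 0.04. The microtubule polymerase gene msps did not pass, at 341 to 379 CPM at 44 h, against 351 to 377 CPM at 24 h.

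Among 26 regulators of the cell cycle, 24 fell, 1 rose and 1 did not pass (median -1.17). CycB, the mitotic B-type cyclin, had 14.9, 13.6 and 13.1 CPM at 44 h, against 241, 248 and 248 CPM at 24 h. The APC activator genes fzy and fzr, which act in mitosis and at cycle exit, moved in opposite directions. The fzy libraries were at 5.68 to 6.09 CPM at 44 h and at 94.7 to 102 CPM at 24 h. The fzr libraries were at 171 to 183 CPM at 44 h and at 49 to 55.4 CPM at 24 h, a rise of 1.80 ± 0.06 on the log2 scale and the only rise in the list. The stg gene, for the Cdc25 phosphatase that starts mitosis, kept a considerable level, at 215 to 223 CPM at 44 h against 715 to 730 CPM at 24 h. Cks30A, a small partner of cyclin-dependent kinases that was outside these lists, fell to 0.264 ± 0.0927 CPM at 44 h, against 55.9 ± 1.55 CPM at 24 h.

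**Figure D2:**
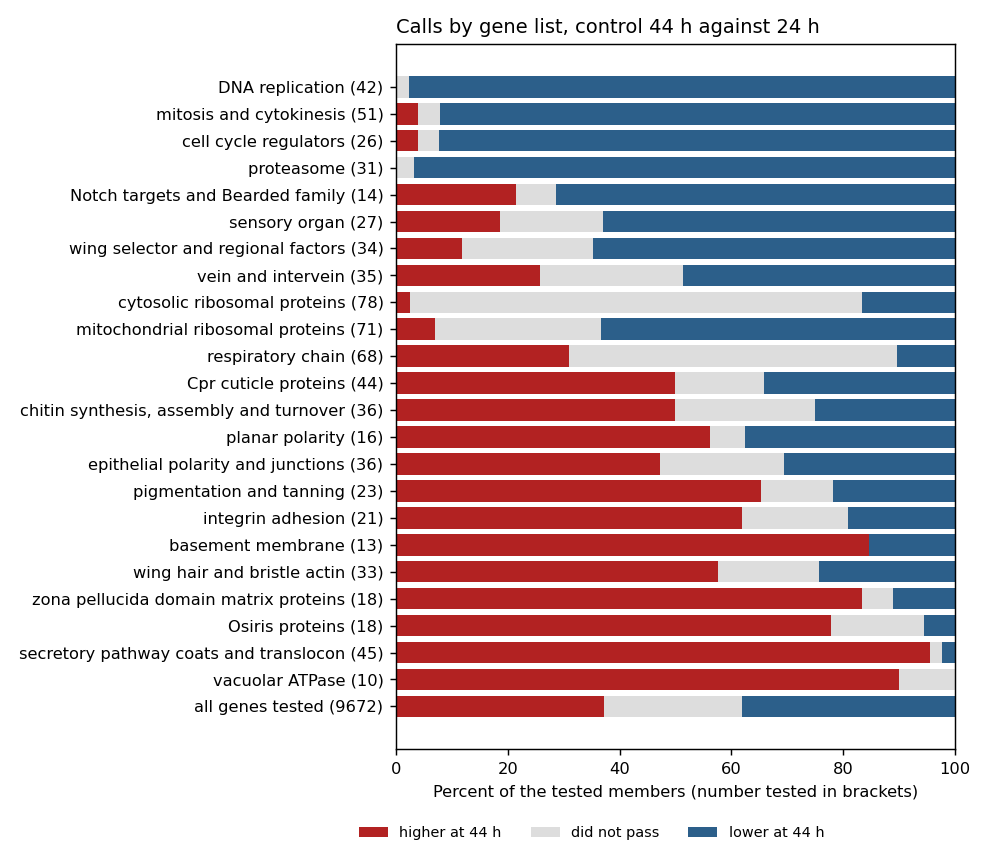
Percent of the tested members of 23 gene lists, and of all 9672 genes, that were higher at 44 h (left, red), did not pass (grey) or were lower at 44 h (right, blue); the number tested is in brackets. DNA replication, mitosis, cell cycle and proteasome lists were mostly lower at 44 h, and secretory pathway and vacuolar ATPase lists mostly higher.

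Genes of the ecdysone cascade changed in both directions. Among its 37 tested members 20 rose, 15 fell and 2 did not pass, against 37.1% higher and 38.1% lower over all genes. The median was 0.18, which became -0.03 on log2(cRPKM + 1), and single genes ranged from -4.82 to 10.58. The largest rise was in Hr3, a nuclear receptor of the ecdysone response, which had 2321, 2212 and 2080 CPM at 44 h, against 1.5, 1.76 and 1.08 CPM at 24 h. Its log2 fold change was 10.58 ± 0.25 (adjusted p = 2.82e-19). Hr3 was among the largest rises over all genes, which were named only where the times did not overlap. Other response genes rose with it. Eip78C, a nuclear receptor, had 920, 944 and 901 CPM at 44 h, against 46, 35 and 36.9 CPM at 24 h. Blimp-1, a zinc finger repressor that times the next step of the cascade, had 722, 689 and 608 CPM at 44 h, against 39.4, 48.1 and 45.9 CPM at 24 h. Hr4, a nuclear receptor, was at 96.2 CPM at 44 h, against 15.2 CPM at 24 h on average. All 3 were higher in every 44 h library than in any at 24 h, with log2 changes of 4.55 ± 0.10 for Eip78C, 3.92 ± 0.15 for Blimp-1 and 2.66 ± 0.10 for Hr4. Further rises were in the ecdysone-inducible gene ImpE1 (2091 to 2390 CPM at 44 h, 34.6 to 46.1 CPM at 24 h), in the ABC transporter gene E23 (2.09 ± 0.08) and in the coactivator gene tai (1.40 ± 0.08).

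The receptor and the importer of the hormone fell. EcR, the receptor itself, had 112, 116 and 105 CPM at 44 h, against 385, 425 and 411 CPM at 24 h, a log2 fold change of -1.87 ± 0.08. Oatp74D, the importer that brings ecdysone into cells, had 13, 13.8 and 13.3 CPM at 44 h, against 115, 118 and 120 CPM at 24 h. Neither showed overlap between the times, as was so for 78.9% of all genes. The partner gene usp changed by 0.18 ± 0.05, which was -0.03 on log2(cRPKM + 1). Cyp18a1, which encodes an ecdysone-inactivating enzyme, rose by 1.00 ± 0.09, and shd, for the enzyme that makes the active hormone, rose to 23.3 to 26.1 CPM at 44 h, against 7.16 to 9.04 CPM at 24 h. Of 5 tested genes for ecdysteroid synthesis, shd was the only one that rose and 4 fell (phtm, sad, spok and dib). The 4 act mainly in the prothoracic gland, and their means were at most 3.28 CPM for phtm and 4.15 CPM for spok at 44 h, against 22.2 CPM and 12.2 CPM at 24 h.

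Further transcription factors of the cascade were lower at 44 h. ftz-f1, a nuclear receptor of the mid-prepupal competence step, had 0.769, 0.448 and 0.665 CPM at 44 h, against 17.1, 18 and 18 CPM at 24 h. The gene br, for the Broad zinc finger factors of the pupal program and identified here from an older identifier, had 1.32, 2.44 and 1.33 CPM at 44 h, against 12.8, 14.9 and 16.7 CPM at 24 h. Both were low already at 24 h and did not overlap between the times, with log2 changes of -4.82 ± 0.17 and -3.10 ± 0.23. Eip93F, which encodes the adult specifier E93, stayed abundant. It had 1274, 1243 and 1337 CPM at 44 h, against 2018, 2115 and 2098 CPM at 24 h, a log2 change of -0.69 ± 0.06. Kr-h1, the juvenile hormone response gene that works against E93, had no count in any of the 6 libraries, which allows up to 0.0533 CPM at 44 h and 0.0496 CPM at 24 h. The juvenile hormone receptor genes Met (0.35 ± 0.07) and gce (1.35 ± 0.22) rose. Of the classical early genes, Eip75B rose by 0.56 ± 0.06 and Eip74EF fell by 0.41 ± 0.07, and Hr39 rose by 0.49 ± 0.09.

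**Figure D3:**
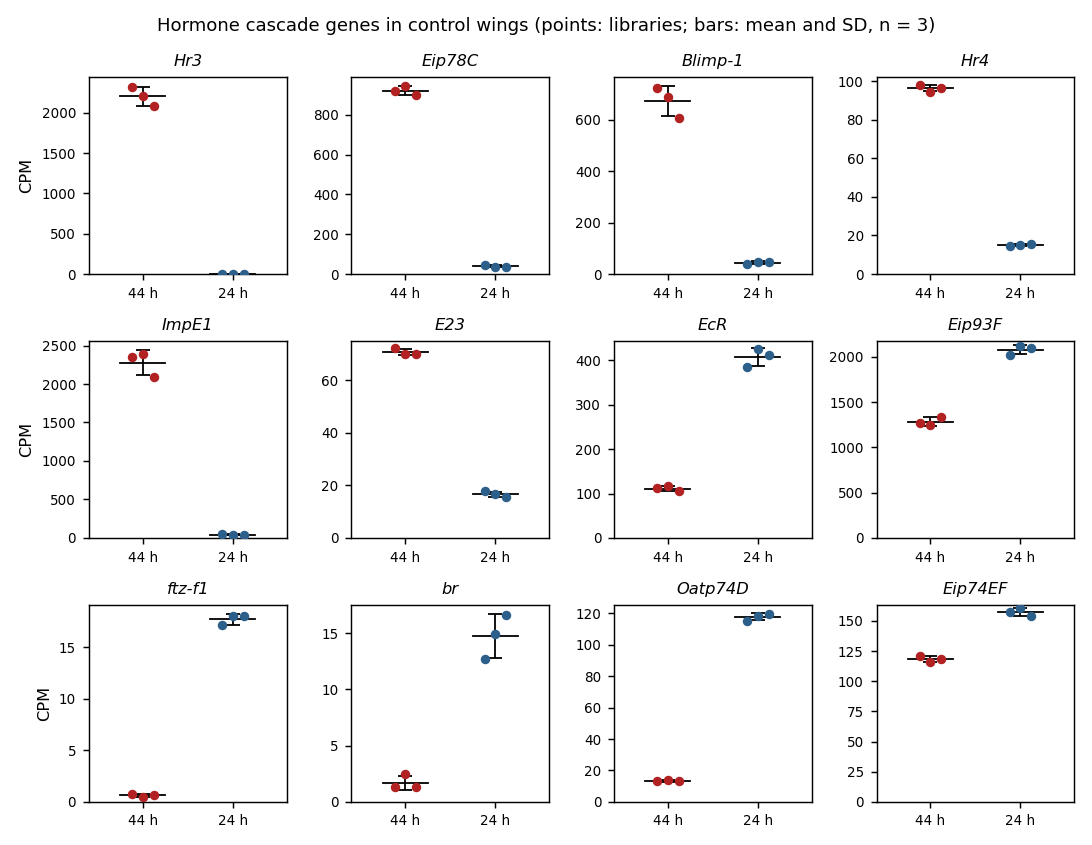
Level in CPM of 12 hormone cascade genes in each control library at 44 h (left, red) and 24 h (right, blue); the horizontal line is the mean and the bar the SD of 3 libraries, on linear axes that start at 0. Hr3, Eip78C, Blimp-1, Hr4, ImpE1 and E23 are higher at 44 h, and EcR, Eip93F, ftz-f1, br, Oatp74D and Eip74EF lower. No panel shows overlap, which was so for 78.9% of all genes.

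The zona pellucida domain proteins, which anchor the apical membrane to the matrix and shape hairs and wing surface, rose in 15 of 18 cases, with 2 falls (cutlet and pot) and 1 that did not pass; the median was 1.80. The genes m (miniature) and dy (dusky), both named for small wings, lie 260 bases apart on the X chromosome. The m libraries had 5701, 5602 and 5347 CPM at 44 h, against 19.9, 10.5 and 15.9 CPM at 24 h. The dy libraries had 2625, 3035 and 2486 CPM at 44 h, against 3.36, 2.77 and 3.47 CPM at 24 h. Their relative dyl, known from hair and bristle shape, had 712, 846 and 726 CPM at 44 h, against 0.981, 0.655 and 1.17 CPM at 24 h. None of the 3 overlapped between the times, as was so for 78.9% of all genes. Their log2 changes were 8.49 ± 0.17 for m, 9.72 ± 0.21 for dy and 9.65 ± 0.19 for dyl. The most abundant of the list, neo, was already present at 24 h, with 496 to 509 CPM, and reached 6996 to 7281 CPM at 44 h. The list took 2.47% ± 0.0605 of all counts at 44 h and 0.321% ± 0.00152 at 24 h.

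The Osiris genes, a family of insect membrane proteins that are largely clustered on chromosome 3R and are transcribed while cuticle forms, showed the largest shift of any list. Of 22 genes, 18 passed the filter on low counts, and of these 14 rose, 1 fell and 3 did not pass. Osi22 had 6319, 7170 and 6541 CPM at 44 h, against 5.78, 2.67 and 3.8 CPM at 24 h. Osi3 had 4532, 5341 and 4760 CPM at 44 h, against 1.75, 2.52 and 2.77 CPM at 24 h. Osi9 had 6006, 6520 and 6132 CPM at 44 h, against 23.9, 20.8 and 21.2 CPM at 24 h. These 3 made up most of the family's transcripts, since the whole family took 1.81% ± 0.108 of counts at 44 h and 0.00666% ± 0.000467 at 24 h. Osi8 and Osi11 were at 430 ± 42.9 and 360 ± 18.2 CPM at 44 h, against 0.146 ± 0.0916 and 0.15 ± 0.104 CPM at 24 h. The family did not move as a block. Osi14 fell to 0.989, 1.15 and 1.39 CPM at 44 h, against 5.27, 5.14 and 6.47 CPM at 24 h, and it was the only member that fell. Osi16, Osi19 and Osi20, singled out after their values were seen, had no count in any control library. Being below 0.5 CPM in every library of 1 time and above 5 CPM in every library of the other was found for 50 genes present at 44 h and 28 genes present at 24 h. Osi4, Osi8, Osi11 and Osi13 were among the 50 and lie in the same stretch of the genome (3R, 6218318 to 6293489, dm6), with other genes between them, Osi9 included.

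Cuticle proteins with the Rebers-Riddiford chitin-binding domain (Cpr genes) changed in both directions. Of 68 genes, 44 were tested; 22 rose, 15 fell and 7 did not pass, against 37.1% higher and 38.1% lower over all genes. At 24 h, a few members were abundant. Cpr72Ea had 220, 212 and 215 CPM at 44 h, against 9494, 9438 and 9493 CPM at 24 h. Cpr12A had 7.53, 7.52 and 7.65 CPM at 44 h, against 373, 396 and 392 CPM at 24 h. Cpr72Eb fell to 4.21 to 5.58 CPM at 44 h, against 205 to 216 CPM at 24 h. In each of these genes all 44 h libraries lay below all 24 h libraries, with log2 changes of -5.46 ± 0.11 for Cpr72Ea, -5.67 ± 0.10 for Cpr12A and -5.45 ± 0.11 for Cpr72Eb. In the other direction, Cpr73D had 422, 427 and 400 CPM at 44 h, against 3.2, 2.52 and 2.16 CPM at 24 h (7.31 ± 0.14). Cpr50Ca and Cpr50Cb rose as well, to 26 to 32 and 18.8 to 20.1 CPM at 44 h, against 0.252 to 0.985 and 0.361 to 0.756 CPM at 24 h. Cpr92A had 714 counts at 44 h and 2 at 24 h, a ratio of 384 with a 95% exact interval from 106 to 3174. The summed share of the Cpr genes was 0.117% ± 0.00135 of counts at 44 h and 1.16% ± 0.00773 at 24 h. Cpr72Ea, with 9475 CPM at 24 h, made up most of the 24 h share.

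Most larval, pupal and adult cuticle genes outside the Cpr list were too low to test. Of 29 genes, 9 were tested, of which 2 rose, 6 fell and 1 did not pass. Edg78E, a pupal cuticle protein, fell to 0.385, 0.548 and 0.499 CPM at 44 h, against 13.3, 11.3 and 14.4 CPM at 24 h. The larval gene Lcp65Ad fell to 0.149 to 0.277 CPM at 44 h, against 5.25 to 6.3 CPM at 24 h. The adult cuticle gene Acp65Aa rose but stayed low, at 1.04 to 1.5 CPM at 44 h, against 0.103 to 0.281 CPM at 24 h. Of 27 Twdl genes only 5 were tested, with 2 rises, 1 fall and 2 that did not pass; TwdlE fell to 22.7 to 27 CPM at 44 h, against 46.7 to 50.1 CPM at 24 h.

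Chitin genes went both ways: of 36 tested, 18 rose, 9 fell and 9 did not pass (median 0.21, and -0.01 on log2(cRPKM + 1)). Over all genes, 37.1% rose and 38.1% fell. The synthase gene kkv, which makes the chitin of wing cuticle, fell to 471, 498 and 440 CPM at 44 h, against 934, 974 and 950 CPM at 24 h. The chitin assembly gene knk fell to 42.9 to 47.6 CPM at 44 h, against 162 to 168 CPM at 24 h. The chitin-binding gene obst-A rose instead, to 819, 810 and 754 CPM at 44 h, against 169, 184 and 173 CPM at 24 h, as did Gasp (1.41 ± 0.09) and the chitinase gene Cht6 (1.56 ± 0.10). In the list of envelope and surface genes 14 of 21 rose, 5 fell and 2 did not pass. The mucin-like gene Mur89F fell to 115, 116 and 85.5 CPM at 44 h, against 3470, 3968 and 3857 CPM at 24 h, and Mur2B rose to 121 to 144 CPM at 44 h, against 5.89 to 6.5 CPM at 24 h.

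Genes of pigmentation and cuticle tanning rose in 15 of 23 cases and fell in 5, with 3 that did not pass (median 0.61). The gene e (ebony), whose enzyme conjugates dopamine for light cuticle, had 656, 645 and 666 CPM at 44 h, against 2.22, 2.42 and 2.11 CPM at 24 h. Pu, the GTP cyclohydrolase gene that supplies the pterin cofactor, had 175, 175 and 183 CPM at 44 h, against 2.06, 1.41 and 2.02 CPM at 24 h. The times were separate for both, with log2 changes of 8.18 ± 0.12 and 6.59 ± 0.10. Members of the yellow family moved both ways. Over the 3 libraries of a time, yellow-d2 had 3530 counts at 44 h and 2 at 24 h (ratio 1897, 95% exact interval 525 to 15667). By contrast, yellow-e2 fell to 0.385 to 0.554 CPM at 44 h, against 15.9 to 18 CPM at 24 h.

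**Figure D4:**
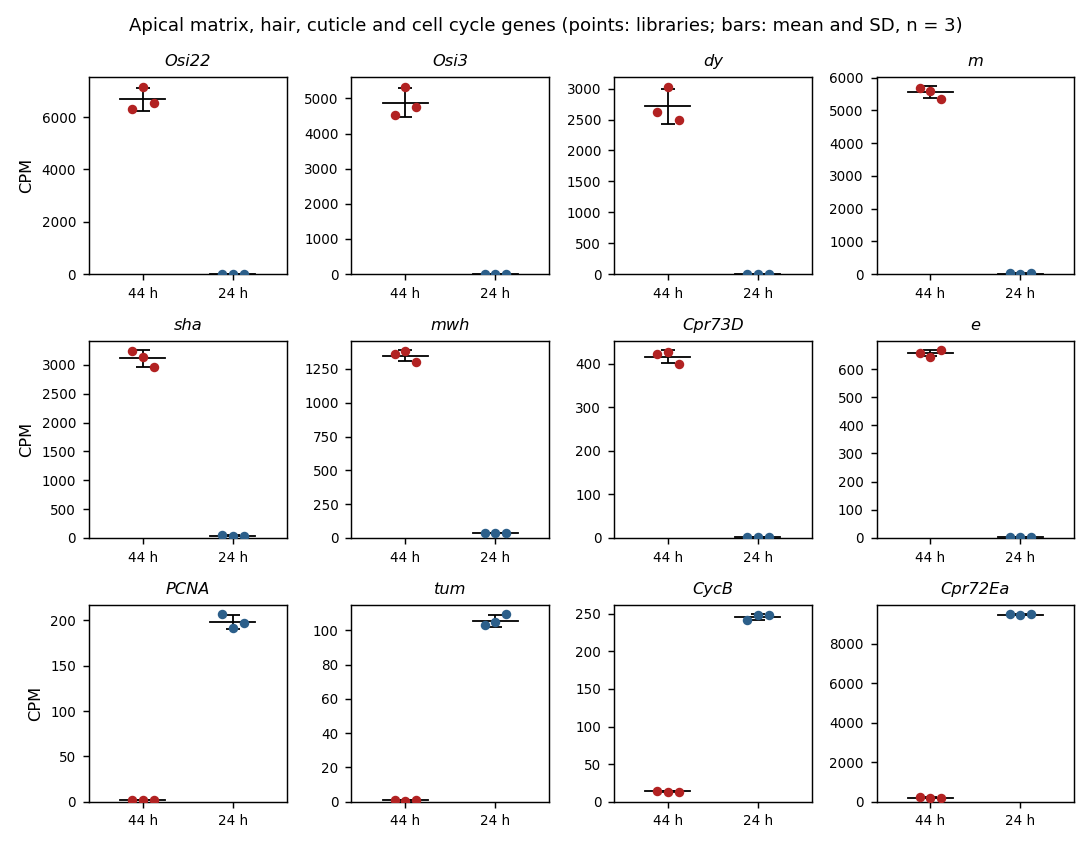
Level in CPM of 12 genes in each control library at 44 h (left, red) and 24 h (right, blue); the horizontal line is the mean and the bar the SD of 3 libraries, on linear axes that start at 0. Osi22, Osi3, dy, m, sha, mwh, Cpr73D and e sit near 0 at 24 h, and PCNA, tum, CycB and Cpr72Ea near 0 at 44 h.

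Genes that build the actin core of wing hairs and bristles rose in 19 of 33 cases, fell in 8 and did not pass in 6. The median was 0.27 and 0.05 on log2(cRPKM + 1), where 14 rose and 14 fell. The largest rises of the list were in sha, f and mwh. The gene sha (shavenoid), required for hair outgrowth, had 3233, 3144 and 2956 CPM at 44 h, against 42.6, 41.7 and 41 CPM at 24 h (6.22 ± 0.12). The forked gene f, an actin bundler of bristles, had 1277, 1283 and 1156 CPM at 44 h, against 20.3, 20.3 and 21.6 CPM at 24 h (5.90 ± 0.10). The gene mwh (multiple wing hairs), which limits each cell to a single hair, had 1360, 1381 and 1301 CPM at 44 h, against 33.7, 35.2 and 33.4 CPM at 24 h (5.31 ± 0.07). In all of them every 44 h library was above every 24 h library. Among the 8 falls were chic, for profilin (-0.72 ± 0.05), and tsr, for cofilin (-0.45 ± 0.08). The cytoplasmic actins diverged, with Act5C at 5429 to 5531 CPM at 44 h, against 3063 to 3140 CPM at 24 h, and Act42A at 1299 to 1341 CPM at 44 h, against 2088 to 2145 CPM at 24 h. Their coding sequences are closely alike, so reads may be shared between them.

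Of the 16 planar polarity genes, which orient the hairs, 9 rose and 6 fell (median 0.39). Shares over all genes were 37.1% higher and 38.1% lower. The effector gene in (inturned) rose to 194 to 210 CPM at 44 h, against 93.2 to 98.5 CPM at 24 h. The core receptor gene fz (frizzled) fell to 120 to 126 CPM at 44 h, against 167 to 168 CPM at 24 h. The cadherin gene ft (fat) fell to 266 to 325 CPM at 44 h, against 450 to 515 CPM at 24 h, and its kinase modifier fj by -0.43 ± 0.05. The gene ovo (shavenbaby), a selector of hair formation, did not pass (0.00 ± 0.07), at 304 to 328 CPM at 44 h, against 299 to 321 CPM at 24 h. Tubulin and microtubule linker genes rose in 8 of 11 cases, among them alphaTub84B (6574 to 6914 CPM at 44 h, 3327 to 3458 CPM at 24 h) and betaTub97EF (2.33 ± 0.08). The near-identical alphaTub84D fell by 0.87 ± 0.06, and reads may be divided uncertainly within this family.

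Genes of basal adhesion rose in most cases. Of 13 basement membrane genes 11 rose and 2 fell, with a median of 1.14. LanB2, a laminin chain, had 1914, 1896 and 1785 CPM at 44 h, against 388, 400 and 398 CPM at 24 h (2.24 ± 0.06). The collagen IV gene vkg had 55.4, 52.8 and 48 CPM at 44 h, against 8.98, 9.02 and 8.12 CPM at 24 h, and its partner Col4a1 had 82.9, 85.4 and 78.1 CPM at 44 h, against 16.6, 12.7 and 13.5 CPM at 24 h. The linker gene Ndg (nidogen) rose by 2.65 ± 0.12 and the collagen-binding gene SPARC by 2.46 ± 0.09. None of these 5 overlapped between the times, as was so for 78.9% of all genes. PH4alphaEFB, a collagen-modifying enzyme, fell to 17.3 to 18.8 CPM at 44 h, against 70.2 to 75.1 CPM at 24 h. Hemocytes also make collagen IV, and the hemocyte list moved in the same direction, its 12 markers summing to 223 to 230 CPM at 44 h and 151 to 157 CPM at 24 h; its part in these rises was not tested. The defining hemocyte gene Hml stayed at 0.498 to 1.15 CPM at 44 h, against 1.08 to 1.55 CPM at 24 h, and He had at most 1 count in any library.

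Of 21 integrin adhesion genes 13 rose, 4 fell and 4 did not pass (median 1.02). The alpha subunit gene if (inflated) had 852, 851 and 781 CPM at 44 h, against 192, 212 and 204 CPM at 24 h. The talin gene rhea had 1159, 1166 and 1024 CPM at 44 h, against 181, 190 and 185 CPM at 24 h. The tensin gene by (blistery), which holds the wing sheets together, had 428, 443 and 425 CPM at 44 h, against 20.8, 23.3 and 23.3 CPM at 24 h. The 3 genes were higher in every 44 h library, by 2.03 ± 0.07, 2.59 ± 0.10 and 4.26 ± 0.09. Vinc, for vinculin, fell by 0.34 ± 0.04, and the subunit gene ItgaPS5 fell to 0.947 to 1.39 CPM at 44 h, against 5.54 to 7.76 CPM at 24 h.

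Of 9 matrix proteases and inhibitors 5 rose and 4 fell, in a comparison that called 75.3% of all genes, about evenly in both directions. Among the matrix metalloproteases, Mmp1 had 32.7, 31.7 and 36.8 CPM at 44 h, against 287, 308 and 288 CPM at 24 h. Mmp2 had 633, 626 and 603 CPM at 44 h, against 148, 143 and 134 CPM at 24 h. These related enzymes therefore changed in opposite directions, by -3.13 ± 0.09 and 2.13 ± 0.06, and their inhibitor gene Timp rose by 1.53 ± 0.12. Sb (Stubble), a membrane protease needed for wing and bristle shape, had 675, 655 and 636 CPM at 44 h, against 39.9, 42.8 and 41.3 CPM at 24 h. Np, a related protease that acts on the apical matrix, had 874 to 960 CPM at 44 h and 384 to 417 CPM at 24 h. Of 36 polarity and junction genes 17 rose, 11 fell and 8 did not pass (median 0.18, and -0.03 on log2(cRPKM + 1)). Shares over all genes were 37.1% higher and 38.1% lower. The septate junction gene cora rose by 1.10 ± 0.06, the scaffold gene pyd fell by 1.14 ± 0.07, and the beta-catenin gene arm did not pass (0.04 ± 0.05).

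The genes that pattern the wing earlier were mostly lower at 44 h. In the list of selectors and regional factors 22 of 34 fell, 4 rose and 8 did not pass (median -0.67). The rotund cofactor gene nab had 44, 40 and 41.3 CPM at 44 h, against 262, 263 and 271 CPM at 24 h. The gene dve, of the proximal and hinge region, fell to 6.48 to 9.03 CPM at 44 h, against 52.1 to 55.2 CPM at 24 h. The selector vg fell by 1.15 ± 0.05, and the driver's own gene rn fell to 49.8 to 53.4 CPM at 44 h, against 115 to 120 CPM at 24 h. The wing genes nub (0.07 ± 0.06) and salm (0.09 ± 0.08) did not pass. B-H1 and B-H2, the Bar genes of sensory and distal cells, rose to 9.12 to 9.81 and 6.88 to 9.53 CPM at 44 h, against 3.78 to 4.6 and 3.43 to 3.72 CPM at 24 h.

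The vein and intervein list had 9 rises and 17 falls among 35 tested members (median -0.12), against 37.1% higher and 38.1% lower over all genes. The EGF receptor ligand gene vn (vein) had 190, 181 and 165 CPM at 44 h, against 46.2, 54.9 and 49.5 CPM at 24 h, and the receptor antagonist gene aos rose by 1.20 ± 0.06. The intervein factor gene bs (blistered) rose to 148 to 155 CPM at 44 h, against 98.9 to 109 CPM at 24 h. The vein repressor gene net had 5.88, 4.63 and 4.99 CPM at 44 h, against 69.2, 67.2 and 61.6 CPM at 24 h. All 44 h libraries were thus above the 24 h range for vn and bs and below it for net. Among 38 genes of Dpp, Wg and Hh signalling, 10 rose, 23 fell and 5 did not pass (median -0.25). The Dpp receptor gene tkv rose by 0.59 ± 0.05 while its effector gene Mad fell to 107 to 110 CPM at 44 h, against 255 to 259 CPM at 24 h. The Wnt genes diverged, with Wnt6 at 6.32 to 6.7 CPM at 44 h, against 24.2 to 25.6 CPM at 24 h, and Wnt4 at 111 to 115 CPM at 44 h, against 60.2 to 66.1 CPM at 24 h.

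Notch response genes of the Enhancer of split complex and the Bearded family fell in 10 of 14 cases, rose in 3 and did not pass in 1 (median -2.08). Brd had 1 count over the 44 h libraries and 604 over those at 24 h, a ratio of 24 h over 44 h of 562 with a 95% exact interval from 101 to 22238. The repressor gene E(spl)m8-HLH had 3 and 726 counts, a ratio of 225 with an interval from 76.8 to 1095. Ocho fell to 0.277 to 0.498 CPM at 44 h, against 11.7 to 13.1 CPM at 24 h. The 3 rises were E(spl)m3-HLH (111 to 117 CPM at 44 h, 58.2 to 62.9 CPM at 24 h), E(spl)m7-HLH and E(spl)m2-BFM. Sensory organ genes fell in 17 of 27 cases and rose in 5, with 5 that did not pass. The proneural genes ac and sc fell to 1.54 to 2.14 and 3.3 to 3.94 CPM at 44 h, against 16.4 to 19.1 and 23.4 to 29.8 CPM at 24 h. The gene nompA, for a matrix protein at the tip of sensory dendrites, rose to 201 to 214 CPM at 44 h, against 44 to 45.4 CPM at 24 h, and insc, which orients dividing precursors, to 74 to 84 CPM at 44 h, against 5.77 to 6.55 CPM at 24 h.

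The machinery of secretion rose almost throughout. Of 45 genes for vesicle coats, the translocon and its chaperones, 43 rose, 1 fell and 1 did not pass (median 0.79), and 42 rose on log2(cRPKM + 1). Hsc70-3, the chaperone BiP of the endoplasmic reticulum, had 4831, 4851 and 4681 CPM at 44 h, against 1248, 1230 and 1240 CPM at 24 h (1.95 ± 0.05). The translocon gene Sec63 had 496, 490 and 478 CPM at 44 h, against 184, 180 and 188 CPM at 24 h. Sec16, which organizes exit sites, rose by 1.46 ± 0.12, and Calr, for calreticulin, by 1.02 ± 0.05. Srp54, of the signal recognition particle, was the only fall, by -0.78 ± 0.05. The list took 1.86% ± 0.00691 of counts at 44 h and 1.09% ± 0.0104 at 24 h. Of the 19 vacuolar ATPase genes 10 were tested, of which 9 rose, 0 fell and 1 did not pass, among them Vha16-1 (905 to 942 CPM at 44 h, 542 to 552 CPM at 24 h).

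Proteasome genes fell almost throughout. Of 31 tested proteasome genes 30 fell, 0 rose and 1 did not pass, with a median of -0.73 and a range from -1.23 to 0.02. Prosalpha6, a subunit of the core ring, had 56.9, 50.2 and 58 CPM at 44 h, against 130, 126 and 129 CPM at 24 h. Rpn2, of the regulatory particle, fell by 0.74 ± 0.04. Of 78 cytosolic ribosomal protein genes 63 did not pass, 13 fell and 2 rose (median -0.06), whereas 55 fell and 0 rose on log2(cRPKM + 1). As a share of counts they took 9.26% ± 0.444 at 44 h and 11.1% ± 0.276 at 24 h; 1 of the 44 h libraries, replicate 3, was above the other two with 9.77%. RpL3, among the most abundant of the list, did not pass, at 2909 to 2969 CPM at 44 h, against 3115 to 3134 CPM at 24 h (adjusted p = 0.0582). Mitochondrial ribosomal protein genes fell in 45 of 71 cases and rose in 5 (median -0.35), and on log2(cRPKM + 1) none rose. Of 68 respiratory chain genes 21 rose, 7 fell and 40 did not pass (median 0.09), against 8 and 22 on log2(cRPKM + 1), so their direction depended on the scaling.

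Heat shock genes fell in 10 of 19 cases and rose in 8. Hsp23 had 338, 333 and 376 CPM at 44 h, against 3985, 3792 and 4031 CPM at 24 h. The related gene Hsp26 moved the other way, with 541, 547 and 568 CPM at 44 h, against 224, 223 and 223 CPM at 24 h, and the cytosolic chaperone gene Hsp83 fell by 1.48 ± 0.04. Cell death and JNK genes fell in 14 of 21 cases and rose in 5, with 2 that did not pass (median -0.41). The death inducers hid and grim fell to 59.3 to 64.5 and 0.165 to 0.249 CPM at 44 h, against 278 to 282 and 7.6 to 9.04 CPM at 24 h. The TNF receptor gene wgn had 385, 374 and 397 CPM at 44 h, against 73.3, 72.4 and 72 CPM at 24 h, and its ligand gene egr rose by 1.13 ± 0.07. Of 19 autophagy genes 6 rose, 8 fell and 5 did not pass, and in the immune list 7 of 21 rose, 10 fell and 4 did not pass. Over all genes, 37.1% rose and 38.1% fell, so these counts are not read as a trait of these 2 lists or of the heat shock list. The cytochrome P450 list, which by its symbol also took in the cyclophilin gene Cyp1, rose in 34 of 61 cases and fell in 14. Cyp4s3 had 162, 160 and 159 CPM at 44 h, against 0.878, 0.454 and 0.516 CPM at 24 h. Cyp310a1 fell to 0.897 to 1.48 CPM at 44 h, against 59.5 to 63.5 CPM at 24 h.

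Some regulators outside wing biology changed as well. Of 8 clock genes 7 rose and 1 fell; the output gene vri had 492, 546 and 475 CPM at 44 h, against 208, 218 and 212 CPM at 24 h, and per stayed low at 5.1 to 5.88 CPM at 44 h, against 0.756 to 0.891 CPM at 24 h. The hour of day at which the wings were dissected is not given in the labels. Small RNA genes fell in 10 of 13 cases with 1 rise and 2 that did not pass. Dcr-2, the nuclease of RNA interference, had 67.7, 62.7 and 58.7 CPM at 44 h, against 230, 220 and 262 CPM at 24 h, and armi fell by 2.25 ± 0.08. Of 6 dosage compensation genes 5 fell and mle did not pass; the largest fall was in mof (-1.48 ± 0.09).

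Markers of other tissues were present, and some of the lists moved with time. The 27 muscle markers summed to 1202 to 1367 CPM at 44 h and 546 to 586 CPM at 24 h; of 26 tested 19 rose, 4 fell and 3 did not pass (median 1.45), and fln was at 0 in all 24 h libraries. Mhc, the muscle myosin heavy chain, had 49.4, 67.6 and 57.9 CPM at 44 h, against 0.878, 1.86 and 0.422 CPM at 24 h. The largest level of the list was that of sls, which encodes a giant elastic protein, at 544 to 680 CPM at 44 h, against 64.6 to 72.2 CPM at 24 h. The muscle factor gene Mef2 fell to 27.9 to 33.5 CPM at 44 h, against 129 to 139 CPM at 24 h. Neuron markers (18) summed to 328 to 350 CPM at 44 h and 234 to 251 CPM at 24 h, with 11 rises, 1 fall and 6 that did not pass; the wing margin and veins carry sensory neurons. Glia markers summed to 601 to 621 CPM at 44 h and 659 to 683 CPM at 24 h, with 3 rises and 3 falls of 9. Of these markers, repo was at only 9.5 to 10.4 CPM at 44 h, against 6.66 to 6.85 CPM at 24 h. The markers include Gli, which is also in the junction list, so their sum need not come from glia alone. The trachea list (5) summed to 635 to 658 CPM at 44 h and 965 to 1022 CPM at 24 h, with 2 rises and 2 falls. Its entries btl and esg were not matched, and how far the sum reflects trachea was not tested. Among the 13 tested genes of the fat body list there were 4 rises and 4 falls, with sums of 435 to 563 CPM at 44 h and 600 to 709 CPM at 24 h, and Yp1 was at 0 in every library. Among hemocyte genes 8 of 11 rose and 1 fell. How far such cells contributed to the changes above was not tested.

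The change with time was next compared with that in the other genotypes, by the difference of the log2 fold changes (control minus the other genotype). The control libraries enter both comparisons, and the libraries labelled E93RNAi differed from control in more than their label. Dcr-2 was at 2202 CPM (44 h) and 5549 CPM (24 h) in them, against 63.0 and 237 CPM in control. Eip93F, the target that the label names, was at nearly the control level in them at 24 h, with 2066 CPM against 2077 CPM. A lowered Eip93F transcript was therefore not seen in them at 24 h. The test for a different change of Eip93F by 44 h was not passed either, as given below. Below, E93RNAi stands for the libraries carrying that label. Against E93RNAi, the change differed for 37.9% of the genes, with a positive difference for 1743 (18%) and a negative one for 1920 (19.9%). Against E93RNAi+brRNAi it differed for 38.5%, with 1792 positive (18.5%) and 1934 negative (20%). A difference of at least 2-fold was found for 10.5% of the genes against E93RNAi (4.06% positive, 6.43% negative) and for 12.6% against E93RNAi+brRNAi (4.01% positive, 8.61% negative). On log2(cRPKM + 1) the first split was 1335 and 2712, and the second was 2225 and 1858. Without the filter on low counts the first was 1940 and 1628. Which side of each split was larger hence depended on the setting.

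DNA replication and mitosis genes had mostly negative differences, so that they fell further in control. Most cell cycle regulators did not pass, but those that passed were also more often negative than positive. Over all genes, 37.9% passed against E93RNAi (19.9% negative) and 38.5% against E93RNAi+brRNAi (20% negative). Of 42 DNA replication genes, 32 had a negative and 1 a positive difference against E93RNAi (median -0.77), and 29 and 0 against E93RNAi+brRNAi (-0.68). PCNA was at 1.97 CPM (44 h) and 198 CPM (24 h) in control, at 7.66 and 123 CPM in E93RNAi and at 5.9 and 120 CPM in E93RNAi+brRNAi. Its differences were -2.64 ± 0.21 and -2.30 ± 0.22 (adjusted p = 3.7e-09 and 3.76e-08). Of 51 mitosis genes 35 had a negative difference in each comparison, with 4 and 2 positive, and tum differed by -2.54 ± 0.25 and -2.27 ± 0.28. Of 26 cell cycle regulators 10 had a negative and 2 a positive difference against E93RNAi (median -0.16), and 8 and 3 against E93RNAi+brRNAi (-0.17).

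Basement membrane and zona pellucida domain genes had a positive difference for most members. Of 13 basement membrane genes 11 had a positive and 1 a negative difference against E93RNAi, and 10 and 1 against E93RNAi+brRNAi; LanB2 differed by 0.83 ± 0.08 and 0.84 ± 0.08. Of 18 zona pellucida domain genes 11 and 12 had a positive difference and 4 and 4 a negative one. The m gene rose further in control, with differences of 1.31 ± 0.19 from E93RNAi and 3.71 ± 0.19 from E93RNAi+brRNAi. The hair genes sha (0.85 ± 0.13 and 2.56 ± 0.13) and mwh (1.13 ± 0.09 and 1.66 ± 0.09) differed in the same direction. Of 45 secretory genes 12 had a positive and 3 a negative difference against E93RNAi, and 21 and 0 against E93RNAi+brRNAi.

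Of 37 hormone cascade genes 11 had a positive and 8 a negative difference against E93RNAi, and 14 and 13 against E93RNAi+brRNAi. Hr3 was at 2204 CPM (44 h) and 1.45 CPM (24 h) in control, at 1476 and 6.24 CPM in E93RNAi and at 1195 and 61.9 CPM in E93RNAi+brRNAi. The differences were 2.69 ± 0.35 and 6.30 ± 0.29 (adjusted p = 4.69e-06 and 7.22e-13). Eip78C (1.26 ± 0.12 and 2.44 ± 0.12), Blimp-1 (1.33 ± 0.20 and 1.85 ± 0.20), Hr4 (1.11 ± 0.13 and 1.61 ± 0.14) and ImpE1 (0.98 ± 0.16 and 0.71 ± 0.16) also rose further in control. ImpE3 differed in opposite directions (0.64 ± 0.22 and -0.66 ± 0.24), E23 rose less in control (-0.92 ± 0.11 and -1.16 ± 0.11), and Eip63F-1, near 1 CPM or below in control, passed against E93RNAi (4.31 ± 0.74) and not against E93RNAi+brRNAi (-0.83 ± 1.11). EcR (-0.59 ± 0.11 and -1.59 ± 0.11) and br (-2.18 ± 0.27 and -1.86 ± 0.30) fell further in control; br is a target of the RNAi in E93RNAi+brRNAi. The fall of Eip93F differed from that in E93RNAi+brRNAi (0.76 ± 0.09) but the test against E93RNAi was not passed (0.14 ± 0.09, adjusted p = 0.194).

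Osiris and Cpr genes had more negative than positive differences. Of 18 Osiris genes 2 had a positive and 8 a negative difference against E93RNAi, and 5 and 9 against E93RNAi+brRNAi. Shares over all genes were 18% positive and 19.9% negative against E93RNAi, and 18.5% and 20% against E93RNAi+brRNAi. The abundant Osi22 was not among the members with a negative difference. Osi22 was at 6677 CPM (44 h) and 4.08 CPM (24 h) in control, at 5795 and 4.0 CPM in E93RNAi and at 13782 and 48.0 CPM in E93RNAi+brRNAi. Its difference was 0.18 ± 0.27 (adjusted p = 0.638) against E93RNAi and 2.51 ± 0.23 against E93RNAi+brRNAi, where the level was higher at both times. Of 44 Cpr genes 8 and 9 had a positive and 18 and 19 a negative difference. Cpr12A was at 7.57 CPM (44 h) and 387 CPM (24 h) in control, at 98.0 and 400 CPM in E93RNAi and at 38.5 and 340 CPM in E93RNAi+brRNAi, so it fell further in control by -3.64 ± 0.12 and -2.53 ± 0.12. Of 26 muscle genes 15 had a positive and 5 a negative difference against E93RNAi, and 4 and 8 against E93RNAi+brRNAi.

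**Figure D5:**
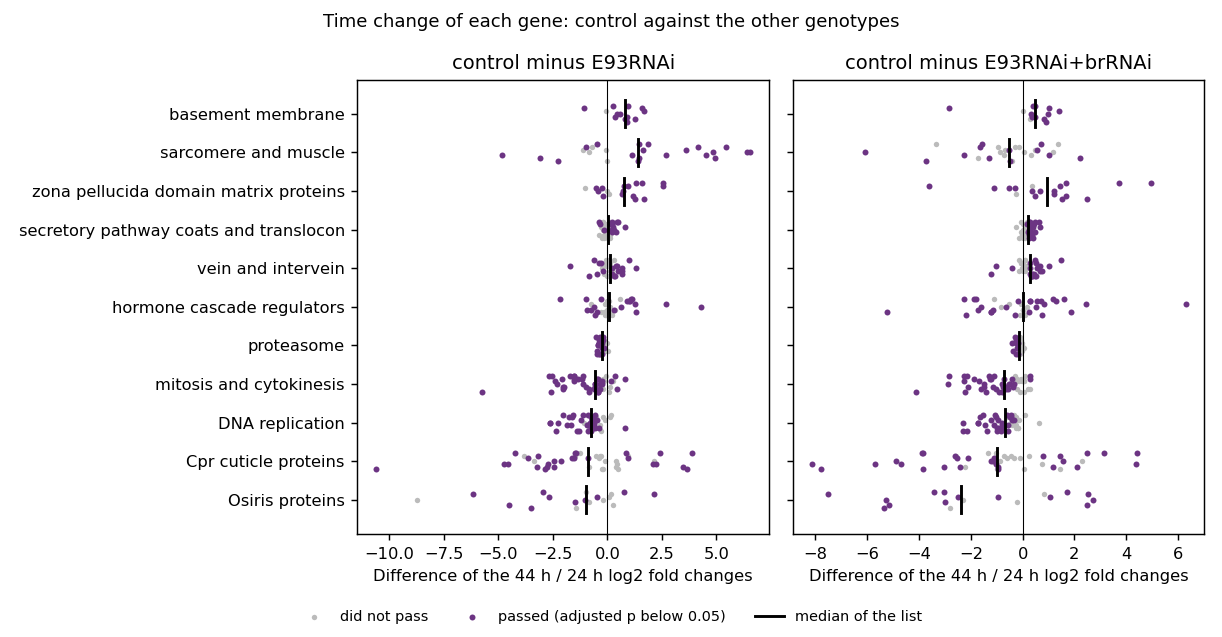
Difference of the 44 h against 24 h log2 fold changes, control minus E93RNAi (left) and control minus E93RNAi+brRNAi (right), for the tested genes of 11 lists; points are genes, purple where the difference passed an adjusted p of 0.05, and black bars are list medians. DNA replication and mitosis genes lie mostly left of 0, and basement membrane genes mostly right of 0, in both panels.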

How the data were processed

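The deposited tables hold, per gene, whole-number counts made by the authors without normalization, and cRPKM, the authors' RPKM per library total and gene length. The genome build was dm6, per the submitters' processing notes. Aligner, counter and strand setting: not given in the sources used here, so reads of overlapping genes and near-identical paralogs may be shared. Of 14489 features listed, 758 had no value and 13731 had values; 13511 of these matched an annotated gene of BDGP6 or RefSeq by identifier and 220 did not. Coordinates are those of the BDGP6 annotation. FBgn0000210, an older identifier, was taken as br: br was not listed under its current one, and the implied length of 8173 bases equals that of a br transcript (8223 bases, less an offset of 49, tolerance 2); 2 unmatched identifiers had the length of a br transcript.

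Counts were fitted with edgeR 4.0.16 (R 4.3.3; TMM, filterByExpr, 1 mean for each of 6 groups over all 18 libraries, quasi-likelihood test, Benjamini-Hochberg adjustment at 0.05), after the fit was tested on simulated data. Few genes changed in the simulated data, so they cannot show how the scaling behaves where 75.3% of the genes are called. The SE of a log2 change is its size divided by the square root of the F statistic. The control libraries held 17948709 to 21874138 counts, so 1 count was worth 0.0457 to 0.0557 CPM before TMM; the common biological coefficient of variation was 5.99%. Floors are 3 counts summed over a group and exact intervals are 95% Poisson ratio intervals; both cover counting error only. Setting members at 0 to their floor moved no list median. Alternatives used DESeq2 1.42.0, limma 3.58.1 on log2(cRPKM + 1) and log2(cRPKM + 0.1), other scalings, no filter, and libraries left out in turn. The labels name no batch.

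The comparison, the 47 gene lists (1323 genes, with 65 list entries not matched) and the named genes were chosen with earlier results of these data known. The rule for names passed over features without a symbol throughout. It took the 12 largest rises and 12 largest falls among called genes with at least 5 CPM and no overlap. It also took the 8 most abundant genes per length at each time. From each list came up to 4 called members per direction and the 2 most abundant members. All members were taken of the hormone cascade, of lists with 12 or fewer tested members and of the cell type lists. The last were the 5 largest differences per direction between genotypes.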

Additional observations from a re-analysis of the deposited data

Results flagged for a closer look

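In each comparison of the change with time between genotypes, the 5 genes per direction with the largest difference were marked, because the difference itself passed edgeR's test. All values are log2 fold changes in control minus those in the other genotype, and no explanation was tested.

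Against E93RNAi, the largest positive differences were mostly in muscle genes. Mhc differed by 6.42, with 58.3 CPM at 44 h and 1.05 CPM at 24 h in control and 22.2 and 34.1 CPM in E93RNAi. CG45076 differed by 5.64, Mlp60A by 5.45, TpnC73F by 4.92 and the flight muscle actin gene Act88F by 4.84. Negative differences were found for CG42331 (-6.71), CG6142 (-6.16), CG4757 (-4.99), CG8927 (-4.64) and the spindle gene msd1 (-4.56). CG42331 was at 5.86 CPM (44 h) and 0.184 CPM (24 h) in control, against 364 CPM and 0.106 CPM in E93RNAi.

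Against E93RNAi+brRNAi, the largest positive differences were in Hr3 (6.3), CG9698 (6.05), C901 (5.54), CG6431 (4.98) and CG15020 (4.97). C901 was at 722 CPM (44 h) and 0.114 CPM (24 h) in control, against 750 CPM and 5.96 CPM in E93RNAi+brRNAi, so the groups lay closer at 44 h than at 24 h. Negative differences were found for the metalloprotease gene sona (-7.24), the ecdysone synthesis gene spok (-6.67), CG11353 (-6.45), CG5639 (-6.36) and CG42331 (-6.36). For sona the levels were 0.352 CPM at 44 h and 21.6 CPM at 24 h in control, and 33.8 and 13.3 CPM in E93RNAi+brRNAi.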

How the results depend on the processing

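Replicate numbers did not pair the control libraries: the deviations of same-numbered libraries from their group means correlated at -0.042, 0.088 and -0.026 for the 3 numbers. With the replicate number as a block, 3541 genes were higher and 3650 lower at 44 h. Leaving out 1 library at a time gave 3461 to 3513 higher and 3522 to 3597 lower genes, and 1685 to 1731 and 1298 to 1347 at 2-fold. The differences from E93RNAi then ranged over 1527 to 1820 positive and 1580 to 1984 negative genes (379 to 407 and 563 to 635 at 2-fold), and those from E93RNAi+brRNAi over 1529 to 1789 and 1743 to 1914 (358 to 399 and 774 to 854). Limma on log2(cRPKM + 1), whose pseudocount shrinks low genes, gave 884 genes at least 2-fold higher (1688 with edgeR), 205 positive and 364 negative 2-fold differences from E93RNAi (393 and 622), and 243 and 500 from E93RNAi+brRNAi (388 and 833). Without TMM, on both cRPKM scales, small rises turned into small falls for usp (-0.03, against 0.18), Hr78 (-0.04, against 0.17), ERR (-0.05, against 0.15), RpL15 (-0.01, against 0.20), mRpS9 (-0.01, against 0.20) and cyc (-0.05, against 0.16); the cause was not tested. Genes low at 24 h and present at 44 h numbered 22 at 0.2 CPM or less and 24 at 10 CPM or more (50 in the main count), and the reverse 4 and 16 (28), by construction of the stricter limits. Low counts limit folds of genes near 0 at 1 time.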
